A study of Mus musculus with 4 samples.

Results

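The cells described here were crypt epithelial cells in G2 and M, taken from single cell RNA sequencing of mouse small intestinal crypts. A cell was chosen by its raw counts, in which 1 unique molecular identifier (UMI) marks 1 transcript that was captured. Fewer than 20% of its UMIs came from genes whose symbols start with Defa, the alpha-defensins of Paneth cells (Defa% in what follows), and at least 5 of 8 mitotic genes had 1 or more UMI. These gate genes were Mki67, Top2a, Ube2c, Cenpf, Birc5, Nusap1, Cdca3 and Cenpa. Of 26498 cells in 4 libraries, 2243 met the rule: 479 and 392 in the libraries labelled fl/fl, and 630 and 742 in those labelled IEC-KO. Because measured genes chose the cells, all differences between these cells and the rest are given as a description without a test.

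The crypts came from 8-week-old mice, and live cells positive for the epithelial surface protein EpCAM and negative for the leukocyte protein CD45 were sorted before capture with the 10x Genomics 3′ kit. Mice labelled slc7a5 IEC-KO (Slc7a5 ΔIEC in the study) carried a homozygous floxed allele of Slc7a5, a transporter of large neutral amino acids, together with Cre under the villin promoter, which drives the recombinase in intestinal epithelium. Controls labelled slc7a5 fl/fl carried the same floxed allele, with no Cre named, and were littermates of the other group, housed together and matched for sex and age. The records name 4 mice but not how they were divided among the 2 libraries per genotype, so p-values measure only the spread between libraries.

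Cells enter G2 after replicating their DNA and divide in M. The cyclin B partner of Cdk1 drives entry into mitosis, the spindle and kinetochores align the chromosomes, the checkpoint holds back the anaphase-promoting complex until all are attached, and cytokinesis then separates the daughter cells. In the crypt, Lgr5-positive stem cells at the base and transit-amplifying cells above them pass through these phases. Their daughters take either the secretory fate, which needs the transcription factor Atoh1, or the absorptive fate, in which Notch signalling keeps Atoh1 off.

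The libraries held 3633, 3217, 10004 and 9644 cell barcodes in the order fl/fl 1, fl/fl 2, IEC-KO 1, IEC-KO 2, which is kept for every series of 4 values here, and between 87922473 and 127094508 UMIs each. The lowest total of any cell was 8909, 9670, 3843 and 5858 UMIs, so cells of low RNA content are listed only for the libraries labelled IEC-KO. The chosen cells had median totals of 11517, 12548.5, 7179 and 9697 UMIs, and mitochondrial genes gave 2.56%, 2.55%, 2.15% and 2.14% of the UMIs of the median chosen cell. At most 1 barcode among the chosen cells was shared between any pair of libraries. Slc7a5 was counted from its 3′ end, and the floxed exon is the first exon, so its count does not check the labels. The chosen cells held 20, 17, 8 and 24 Slc7a5 UMIs.

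Genes switched on in G2 often carry 2 kinds of element near their start: CCAAT boxes, bound by NF-Y, and a cell cycle genes homology region, most often TTTGAA and in other genes the less common TTCGAA, through which the MuvB complexes act. The promoters of the 4 genes that mark this class are shown so that these elements can be seen, from 250 bases before to 30 bases after the annotated start (RefSeq, GRCm38.p6), 5′ to 3′ on the strand of the gene. Capitals mark CCAAT boxes, written ATTGG where the box lies on the other strand, and the homology regions. Of these, TTTGAA becomes TTCAAA when it lies on the other strand, whereas TTCGAA reads alike on both.
Ube2c, chr2:164769679-164769958, plus strand: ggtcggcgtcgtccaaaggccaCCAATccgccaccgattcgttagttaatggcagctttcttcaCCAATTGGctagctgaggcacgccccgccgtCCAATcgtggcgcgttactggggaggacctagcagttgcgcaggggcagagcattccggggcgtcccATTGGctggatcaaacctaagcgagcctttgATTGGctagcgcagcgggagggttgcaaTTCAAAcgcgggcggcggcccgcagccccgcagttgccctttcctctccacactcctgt
Cenpa, chr5:30666636-30666915, plus strand: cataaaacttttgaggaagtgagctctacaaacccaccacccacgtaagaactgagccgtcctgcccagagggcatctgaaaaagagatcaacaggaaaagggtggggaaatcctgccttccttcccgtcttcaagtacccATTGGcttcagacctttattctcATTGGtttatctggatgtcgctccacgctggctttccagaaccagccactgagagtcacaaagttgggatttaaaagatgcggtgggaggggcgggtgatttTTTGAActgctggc
Top2a, chr11:99024160-99024439, minus strand: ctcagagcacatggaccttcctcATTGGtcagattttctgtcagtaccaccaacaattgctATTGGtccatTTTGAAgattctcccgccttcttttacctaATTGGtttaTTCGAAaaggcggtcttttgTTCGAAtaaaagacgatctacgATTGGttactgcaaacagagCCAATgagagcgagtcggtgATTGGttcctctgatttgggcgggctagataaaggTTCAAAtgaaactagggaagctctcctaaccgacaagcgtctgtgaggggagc
Birc5, chr11:117848987-117849266, plus strand: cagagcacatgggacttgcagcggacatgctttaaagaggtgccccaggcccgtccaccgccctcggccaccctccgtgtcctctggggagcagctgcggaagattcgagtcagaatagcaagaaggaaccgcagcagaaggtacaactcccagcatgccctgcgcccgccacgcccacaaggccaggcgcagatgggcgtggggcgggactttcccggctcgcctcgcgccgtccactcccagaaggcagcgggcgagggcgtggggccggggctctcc
The Ube2c window held 6 CCAAT matches, a pair of which overlap on opposite strands, and Top2a also held 6, while Birc5 held none of the motifs. In the 300-base windows of the 8 gate genes, 6 (75%) had at least 2 CCAAT matches, against 11.7% of all 32851 promoter windows. The same 6 windows had TTTGAA, which 17.9% of all windows had, and 1 (Top2a) had TTCGAA, against 1.56%. A CCAAT match together with a homology region of either spelling was found in 6 of 8 windows and in 7.52% of all. Birc5 and Nusap1 were without any of these letters in the window. A match describes the letters and is not evidence of a bound site.

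The gate genes were abundant in the chosen cells, as the rule requires. Ube2c, the E2 enzyme of the anaphase-promoting complex, stood at 509, 516, 498 and 433 CPM in the chosen cells (a gene's UMIs scaled to a fixed total, the same for every library and class) and at 24.0, 24.6, 23.4 and 22.5 CPM in the other cells with Defa% under 20. Top2a, the topoisomerase that untangles replicated chromosomes, stood at 356, 356, 370 and 355 CPM against 28.1, 30.8, 27.0 and 30.0. Cenpa, the histone of the centromere, stood at 210, 216, 198 and 164 CPM against 9.82, 13.1, 12.3 and 10.1. Each of these genes lay in a narrow band over the 4 libraries, far above the band of the other cells. Birc5, or survivin, of the chromosomal passenger complex, had 389, 389, 392 and 332 CPM against 29.6, 27.3, 30.8 and 26.9. The mean fold over the libraries, computed on CPM + 1, ran from 11.7 for Mki67 to 27.6 for Nusap1 (median 14.3 over the 8 genes). When every cell was thinned to 3843 UMIs, the lowest total of any cell, Ube2c was detected in 78.7%, 74.2%, 80.2% and 74.5% of the chosen cells and in 7.40%, 8.14%, 8.18% and 7.48% of the others.

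The limit of 5 genes cut through a gradient. Summed UMIs of the mitotic lists made up 27.3, 24.4, 36.3 and 26.6 per 10000 in the cells with 4 gate genes, just outside the limit, and 39.5, 36.6, 46.2 and 35.4 in those with 5, just inside it. Cells with all 8 genes had 65.8, 64.9, 59.5 and 54.8, and cells with none had 8.2, 7.8, 7.0 and 7.0. All 8 genes were detected in 37.4%, 40.8%, 15.7% and 26.0% of the chosen cells, an order that follows their median totals. Few cells lay near the other limit: 7, 3, 11 and 18 chosen cells had a Defa% between 15 and 20, and 4, 1, 11 and 15 cells with at least 5 gate genes had one between 20 and 25. Among all cells with Defa% of 20 or more, 376, 393, 27 and 70 also passed the gene limit, or 17.6%, 19.3%, 0.812% and 1.97% of them. Doublet calls took 5.85%, 7.89%, 92.6% and 37.1% of these, and their part in those numbers was not tested.

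Mitotic genes that the rule did not use were higher as well. Every measured member of the lists of mitotic kinases and cyclins (14 genes), spindle and kinetochore (24), checkpoint and anaphase (14), chromosome condensation (14) and cytokinesis (8) was higher in the chosen cells than in the other cells in all 4 libraries. Of all 8817 genes measured (those with at least 50 UMIs in every library over both classes), 55.2% were higher in all 4 libraries, so the direction alone says little; 4.96% were at least 2-fold higher in all 4. The median folds of the 5 lists were 9.19, 8.94, 6.14, 5.22 and 9.41.

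**Figure D1:**
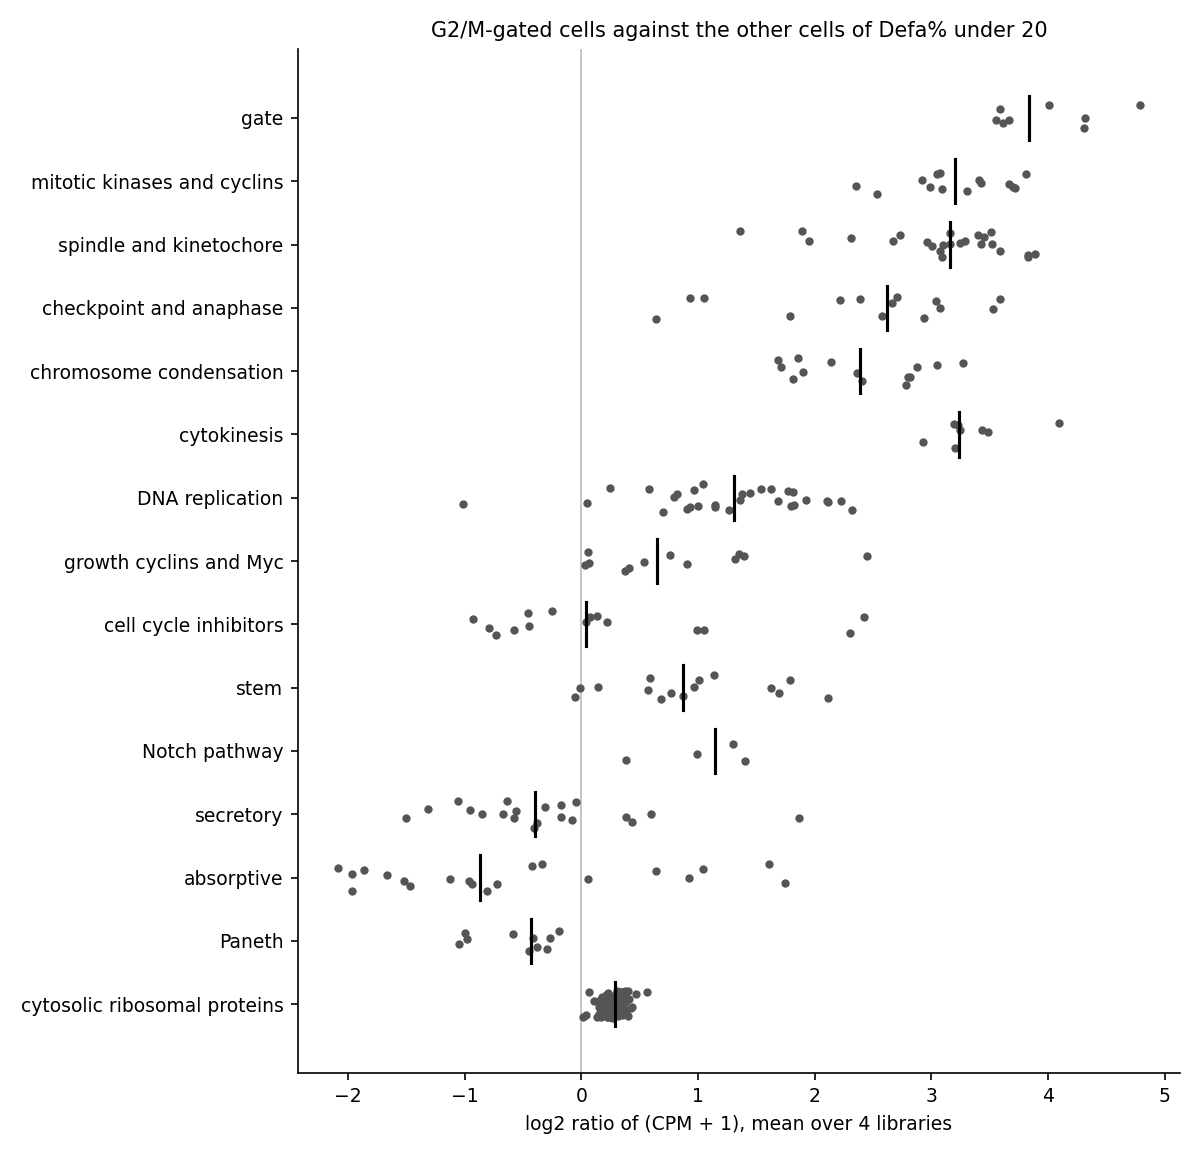
Each point is 1 gene, placed by its log2 ratio of CPM + 1 between the chosen G2 and M cells and the other cells with Defa% under 20, averaged over the 4 libraries, and the black bars are list medians. The gate genes and the 5 mitotic lists stand far to the right of 0, replication genes lie between, and most absorptive, secretory and Paneth genes lie left of 0.

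Among the kinases and cyclins, Ccnb1, the cyclin of mitotic entry, was 13.2-fold higher (range over libraries 12.8 to 14.0), with 117, 121, 96.2 and 88.7 CPM in the chosen cells and 7.4, 8.5, 6.5 and 5.9 in the others. Aurka, a kinase of the spindle poles, was 14.1-fold higher and Plk1, which acts from mitotic entry to cytokinesis, 13.0-fold. Cks1b, a Cdk-binding subunit, had the smallest fold of this list, 5.12. Among spindle genes the highest folds were those of Tpx2, which nucleates spindle microtubules, at 14.8, and of Hmmr, a spindle assembly factor, and the kinetochore motor Cenpe, both at 14.2. Tubb4b, a tubulin used throughout the cell cycle, had the lowest, 2.56.

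In the checkpoint list Cdc20, the activator of the anaphase-promoting complex, was 12.0-fold higher, and the shugoshin Sgol1, which guards centromere cohesion, 11.6-fold. Pttg1, or securin, was 1.56-fold higher, with 30.3, 35.9, 29.2 and 27.7 CPM against 21.4, 20.0, 18.5 and 17.3. Among condensation genes the chromatin protein Hmgb2 was 9.67-fold higher and the condensin core Smc2 8.26-fold. Prc1, which bundles the central spindle, had the largest fold of any measured gene outside the gate, 17.1. Of the 25 measured genes with the largest folds, 20 belonged to the lists, and the rest were the histones Hist1h2ap (14.0-fold) and Hist1h1b (12.3-fold), the mitotic kinase Pbk, Sapcd2 and the Mad-family repressor Mxd3.

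Replication genes were higher than in the other cells and lower than in S-gated cells. Of 30 measured replication genes, 28 were higher in the chosen cells than in the others in all 4 libraries, with a median fold of 2.48. Their median log2 ratio was -1.40 against S-gated cells, that is 260 unchosen cells with at least 5 of 8 replication genes. Since replication genes chose the S-gated cells, that gate fixes the direction of this ratio, which is given as a description. Pcna, the sliding clamp of the polymerase, had 39.9, 38.6, 32.8 and 38.9 CPM in the chosen cells, 22, 22.2, 15.1 and 18.1 in the others and 123, 122, 137 and 155 in S-gated cells. Pcna belongs to the S gate.  Cdt1, which licenses origins and was not in that gate, had 6.9, 8.5, 6.4 and 5.4 CPM in the chosen cells and 62.6, 32.6, 31.3 and 50.1 in S-gated cells. The repair enzyme Ung was lower in the chosen cells than in the others, at 0.49-fold.

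Genes of the regulators of the cycle were uneven. Foxm1, the transcription factor of the G2 genes, was 5.44-fold higher in the chosen cells, and Cdk4, the kinase of the G1 cyclins, 2.49-fold, whereas Ccnd2 and Ccnd3 differed by 1.04-fold and 1.02-fold. Among the inhibitors, Cdkn2d and Cdkn2c, of the INK4 family, were 5.36-fold and 4.92-fold higher. Cdkn1a, or p21, was lower, with 48.6, 63.7, 56.0 and 55.8 CPM against 113, 123, 99.3 and 95. Cdkn1a and Cdkn2d therefore lay on opposite sides in every library.

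Of 15 measured stem cell genes, 12 were higher in the chosen cells in all 4 libraries, against 55.2% of all measured genes. Their median fold was 1.83, against 1.19 over all measured genes. Against S-gated cells their median log2 ratio was 0.10, near the 0.09 of all measured genes. Ascl2, the stem cell transcription factor, had 21.6, 25.1, 13.5 and 17.4 CPM against 2.7, 6.1, 3.1 and 3.2 in the other cells (4.31-fold). Axin2, a Wnt target, was 3.46-fold higher and Cd44 3.08-fold. Lgr5, which marks the stem cells themselves, was rare: at matched depth 2.92%, 3.06%, 2.54% and 2.29% of the chosen cells had a UMI, against 0.89%, 1.02%, 1.04% and 1.14% of the others. The share in cells with Defa% of 20 or more, which should lack the gene, was 1.31%, 1.32%, 2.29% and 1.91%. Prom1 and Sox9, which are not restricted to stem cells, had folds of 0.99 and 1.10.

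Genes of Notch signalling were higher in the chosen cells. All 4 measured Notch pathway genes were higher in all 4 libraries, as were 55.2% of all measured genes, among them the target Nrarp (2.64-fold) and the receptor Notch1 (2.46-fold). Hes1, the Notch target that represses Atoh1, had 49.1, 46.1, 35.2 and 43.4 CPM against 22.2, 24.8, 18 and 25. Dll1, the ligand that early secretory cells show to their neighbours, was detected at matched depth in 14.8%, 11.2%, 8.73% and 8.36% of the chosen cells and in 8.68%, 8.78%, 5.67% and 6.32% of the others. Sox4, a factor of early secretory cells, was 3.64-fold higher. Atoh1, which the secretory fate needs, lay at 1.05, 0.95, 0.93 and 0.96 times its level in the other cells, and Spdef, which acts after it, at 0.74, 0.74, 0.76 and 0.76 times.

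Genes of finished fates were lower. Of 20 measured secretory genes, 15 were lower and 4 higher in all 4 libraries (median 0.760-fold), and of 20 absorptive genes 13 were lower and 6 higher (median 0.546-fold). The background was 15.7% of measured genes lower and 55.2% higher in all 4 libraries. Against S-gated cells the median log2 ratio was 0.04 for the absorptive and -0.01 for the secretory genes, so S-gated cells shared these levels. Zg16, a granule protein of mature goblet cells, stood at 6068, 7189, 4657 and 5708 CPM against 20488, 20561, 13653 and 12946 in the other cells. Fabp1, the fatty acid binding protein of enterocytes, stood at 256, 340, 253 and 195 CPM against 1509, 1885, 762 and 652. The 6 absorptive genes that were higher were Clca3b (3.35-fold), Cps1, of the urea cycle (3.05-fold), Dmbt1 (2.06-fold), Hes1, Ada and Hnf4g. All 10 measured Paneth genes were lower, at a median of 0.741-fold. Ribosomal protein genes went the other way: 70 of 77 were higher in all 4 libraries, against 55.2% of all measured genes. Their median of 1.22-fold was near the 1.19-fold of all measured genes. Ribosomal protein genes gave 21.4%, 21.4%, 23.7% and 23.4% of the UMIs in the chosen cells against 16.3%, 16.2%, 21.7% and 21.4% in the others.

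Markers of other cell types were sparse. The summed level of 13 immune genes (14 gene identifiers, as Itgam has 2) in the chosen cells was 5.53, 7.94, 4.97 and 4.21 CPM, with Cd3d, Cd3e, Cd3g, Nkg7 and Gzma at 0 in all libraries. Stromal and endothelial genes summed to 1.00, 1.70, 0.199 and 1.73 CPM, with Col1a1, Col1a2, Col3a1, Dcn, Lum, Pdgfra and Cdh5 at 0. The 10 epithelial genes summed to 6620, 6643, 6400 and 6101 CPM. UMIs of abundant secretory genes were widespread, and the part of free or carried-over RNA in them was not tested. Muc2, the mucin of goblet cells, had a UMI in at least 99.9% of the chosen and of the other cells, and the median chosen cell drew 4.09%, 4.57%, 2.46% and 3.20% of its UMIs from alpha-defensins. A UMI of an abundant secretory gene is therefore not read here as expression.

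A secretory mark was read from Atoh1, with every cell thinned to 3843 UMIs. In the chosen cells 28.4%, 26.8%, 30.3% and 32.1% had an Atoh1 UMI (95% exact binomial intervals 24.4 to 32.7, 22.5 to 31.5, 26.7 to 34.1 and 28.7 to 35.6, which cover counting error only). The other cells had 29.6%, 29.9%, 34.7% and 36.0%, slightly more in each library. As background, unchosen cells with at least 1% of their UMIs from 8 enterocyte genes, which should lack Atoh1, had 7.14%, 9.78%, 11.3% and 10.9% (112, 92, 266 and 221 cells; median totals 10366, 11176.5, 5237 and 7391 UMIs). The chosen cells lay above this background in each library. The mean share was 27.6% in the libraries labelled fl/fl and 31.2% in those labelled IEC-KO, a difference of 3.61 points (two-sided exact permutation test over 4 libraries, p = 0.333, the smallest this design allows). Without thinning the shares were 58.7%, 56.6%, 50.3% and 61.1%, and the difference turned to -1.96 points.

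An absorptive mark was read from Cps1 or Clca3b at the same depth, since the genes of mature enterocytes were low in the chosen cells. In the chosen cells 53.0%, 54.1%, 47.8% and 50.4% had a UMI of either gene, against 26.9%, 26.6%, 17.7% and 20.9% of the other cells. The background in cells with Defa% of 20 or more was 12.9%, 12.0%, 10.8% and 11.7%. S-gated cells shared the high level of both genes. Cps1 stood at 217, 244, 171 and 179 CPM in the chosen cells and 198, 170, 116 and 171 in S-gated cells. Clca3b stood at 97.6, 115, 69.9 and 69.9 CPM against 113, 101, 69.8 and 76.9. The share of chosen cells with the mark differed by -4.46 points between genotypes (exact permutation p = 0.333). It differed by -0.74 points when the rule itself was applied to thinned cells. With at least 2 of 6 enterocyte genes as the mark the shares were 79.5%, 82.7%, 63.5% and 69.5%, a difference of -14.6 points. The other cells had 81.4%, 82.2%, 56.1% and 62.1% by this mark and cells with Defa% of 20 or more had 75.5%, 70.3%, 43.7% and 50.7%, so it is not read here as an absorptive share.

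**Figure D2:**
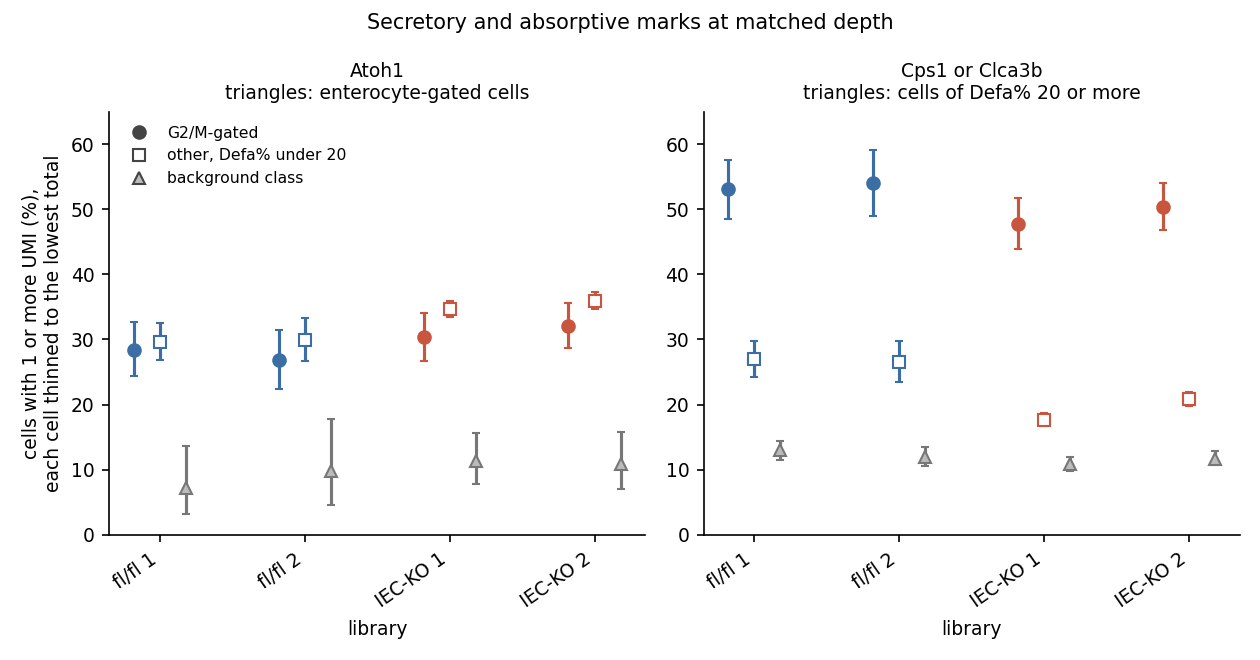
Percentage of cells with 1 or more UMI of Atoh1 (left) and of Cps1 or Clca3b (right) in each library, every cell thinned to the lowest total, with 95% exact binomial intervals; circles are the chosen G2 and M cells, open squares the other cells with Defa% under 20, and grey triangles the background class named above each panel. Circles and squares lie near each other for Atoh1, whereas the circles for Cps1 or Clca3b stand at 47.8% to 54.1%, above the squares at 17.7% to 26.9%.

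The marks were unevenly shared among the chosen cells. Both marks were called on thinned cells, so an Atoh1-negative cell is one without an Atoh1 UMI after thinning. At full depth 58.7%, 56.6%, 50.3% and 61.1% of the chosen cells had an Atoh1 UMI. The split therefore does not separate cells with Atoh1 from cells without it. Of the Atoh1-positive cells 32.4%, 31.4%, 37.2% and 42% had Cps1 or Clca3b (136, 105, 191 and 238 cells), and of the Atoh1-negative cells 61.2%, 62.4%, 52.4% and 54.4%. Levels of genes outside the marks followed the split. Spdef, which drives goblet and Paneth maturation, had 123, 110, 150 and 131 CPM in Atoh1-positive and 74.2, 64.5, 101 and 104 in Atoh1-negative cells. Hes1 had 22.4, 32.5, 20.2 and 32.0 CPM against 59.7, 50.8, 41.7 and 48.7, and Dll1 53.0, 54.6, 28.7 and 33.6 against 26.0, 24.1, 19.4 and 23.4. Ube2c did not separate them in this way, at 539, 550, 498 and 462 CPM against 497, 504, 498 and 420. The stem cell gene Olfm4 was at 13.9, 15.6, 11.3 and 7.7 CPM in cells with the absorptive mark and at 2.9, 2.1, 3.7 and 1.7 in those without it.

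The share of chosen cells among cells with Defa% under 20 was 32.1%, 33.3%, 9.43% and 12.2%, so the libraries labelled IEC-KO lay below both others. The means were 32.7% and 10.8%, a difference of -21.9 points (two-sided exact permutation test, p = 0.333, the smallest possible). Of all cells the shares were 13.2%, 12.2%, 6.30% and 7.69%, a difference of -5.69 points. The number of unchosen cells with Defa% under 20 moved with this result: 1014, 786, 6050 and 5348. So did depth, since a cell with fewer UMIs has fewer chances to show 5 of 8 genes. With all cells thinned to 3843 UMIs the shares were 18.2%, 15.4%, 5.28% and 5.83%. With cells above a common lower limit of 9670 UMIs, thinned to it, they were 35.2%, 30.8%, 17.6% and 19.0%, a difference of -14.7 points. That limit kept 88.1%, 100%, 28.3% and 50.4% of the cells. The share was lower in the libraries labelled IEC-KO in each of these settings, and the size ranged from -22.8 to -11.3 points among cells with Defa% under 20. These shares are taken over the cells called in each library, and genotype and cell calling cannot be told apart here. Doublet calls took 3.13%, 2.30%, 11.6% and 9.03% of the chosen cells, and without them the difference was -22.0 points.

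**Figure D3:**
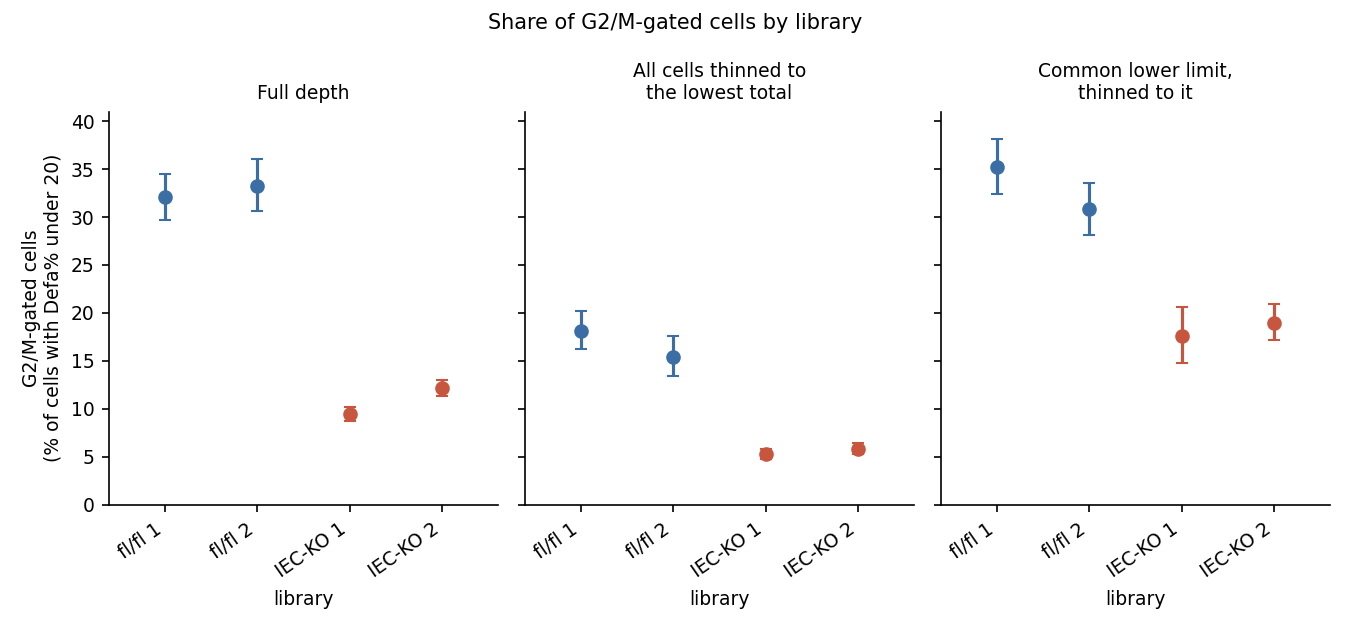
Chosen G2 and M cells as a percentage of the cells with Defa% under 20 in each library (points, with 95% exact binomial intervals), at full depth, with all cells thinned to 3843 UMIs and with cells over a common lower limit of 9670 UMIs thinned to it. In the 3 panels both libraries labelled IEC-KO, at most 19.0%, lie below the libraries labelled fl/fl of the same panel.

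Within the chosen cells, UMIs were summed per library and the genotypes were tested against each other over all genes (edgeR, quasi-likelihood, Benjamini-Hochberg adjusted p under 0.05). The sums mix the number of transcripts per cell and the kinds of cell chosen, which cannot be told apart. Of 10345 genes tested, 534 passed, or 5.16%: 368 were higher in the libraries labelled IEC-KO (3.56%) and 166 lower (1.60%). With scaling by library size only, 260 were higher and 327 lower, so the higher share of the calls went from 68.9% to 44.3%; the median of all genes moved by -0.06 on the log2 scale. Leaving out fl/fl 1 gave 215 higher and 112 lower, leaving out fl/fl 2 gave 186 and 87, and leaving out IEC-KO 2 gave 306 and 104. The values below are CPM scaled by the trimmed mean of M values (TMM), and changes are log2 differences, IEC-KO against fl/fl.

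Few genes of the mitotic lists passed, and most had a change below 0. Of 14 kinases and cyclins 3 passed, all lower (21.4%, against 1.60% of all genes): Ccnb2 (-0.34), Ccnb1 (-0.31) and Ccna2 (-0.30). Ccnb1 stood at 114, 119, 96.8 and 92.0 scaled CPM. In the checkpoint list Cdc20 was lower (-0.37, with 130, 149, 117 and 100 scaled CPM). On the spindle list of 24 genes, Stmn1, which destabilizes microtubules (-0.26), and Hmgb3, a chromatin protein placed on that list (-0.30), were lower. None of these 6 calls held in all 4 fits that left out a library: of the 3 kinases and cyclins none passed without fl/fl 1 or fl/fl 2 and 1 without IEC-KO 2. None of the 6 held with doublets left out, none when the rule was applied to thinned cells, and none in DESeq2. No gene of the chromosome condensation (14), cytokinesis (8) or replication (31) lists passed. A change above 0, called or not, was found for 1 of 14 kinases and cyclins (list median -0.21), 2 of 24 spindle genes (-0.14), 6 of 14 checkpoint genes (-0.07), 2 of 14 condensation genes (-0.09) and 0 of 8 cytokinesis genes (-0.16), against 5190 of all 10345 genes. The replication median was -0.02, with 13 of 31 above 0. Trp53inp1, a p53 target (1.26), and Gadd45g (0.42) rose among 15 cell cycle inhibitors; Trp53inp1 was lost without fl/fl 1 or IEC-KO 2, Gadd45g without either of these or fl/fl 2, and both with doublets left out. The gate genes, whose detection depends on depth, ran from 0.11 for Mki67 to -0.18 for Cenpa.

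Genes of the amino acid response rose together. ATF4 is the transcription factor made when amino acids are short. Of 30 genes that it controls or that act with it, 26 were higher and none lower in the libraries labelled IEC-KO. Of all genes tested, 3.56% were higher and 1.60% lower. The list median was 1.08, against 0.00072 over all genes. The genes with the largest fitted changes were near 0 in the libraries labelled fl/fl. Trib3, a pseudokinase that restrains ATF4 signalling, had 1, 4, 158 and 333 UMIs, or 0.164, 0.745, 31.6 and 42.7 scaled CPM. Chac1, which degrades glutathione, had 9, 2, 135 and 244 UMIs, and Aldh1l2, a mitochondrial one-carbon enzyme, 2, 1, 16 and 64. Adm2, a secreted peptide outside the list, had 5, 2, 127 and 273. The fitted changes of these 4 genes, 6.38 ± 0.32 (SE), 4.91 ± 0.28, 4.45 ± 0.65 and 5.62 ± 0.31, depend on the prior count. Libraries of the different genotypes did not overlap for 29 of the 30 genes; 46.5% of all genes did not overlap.

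**Figure D4:**
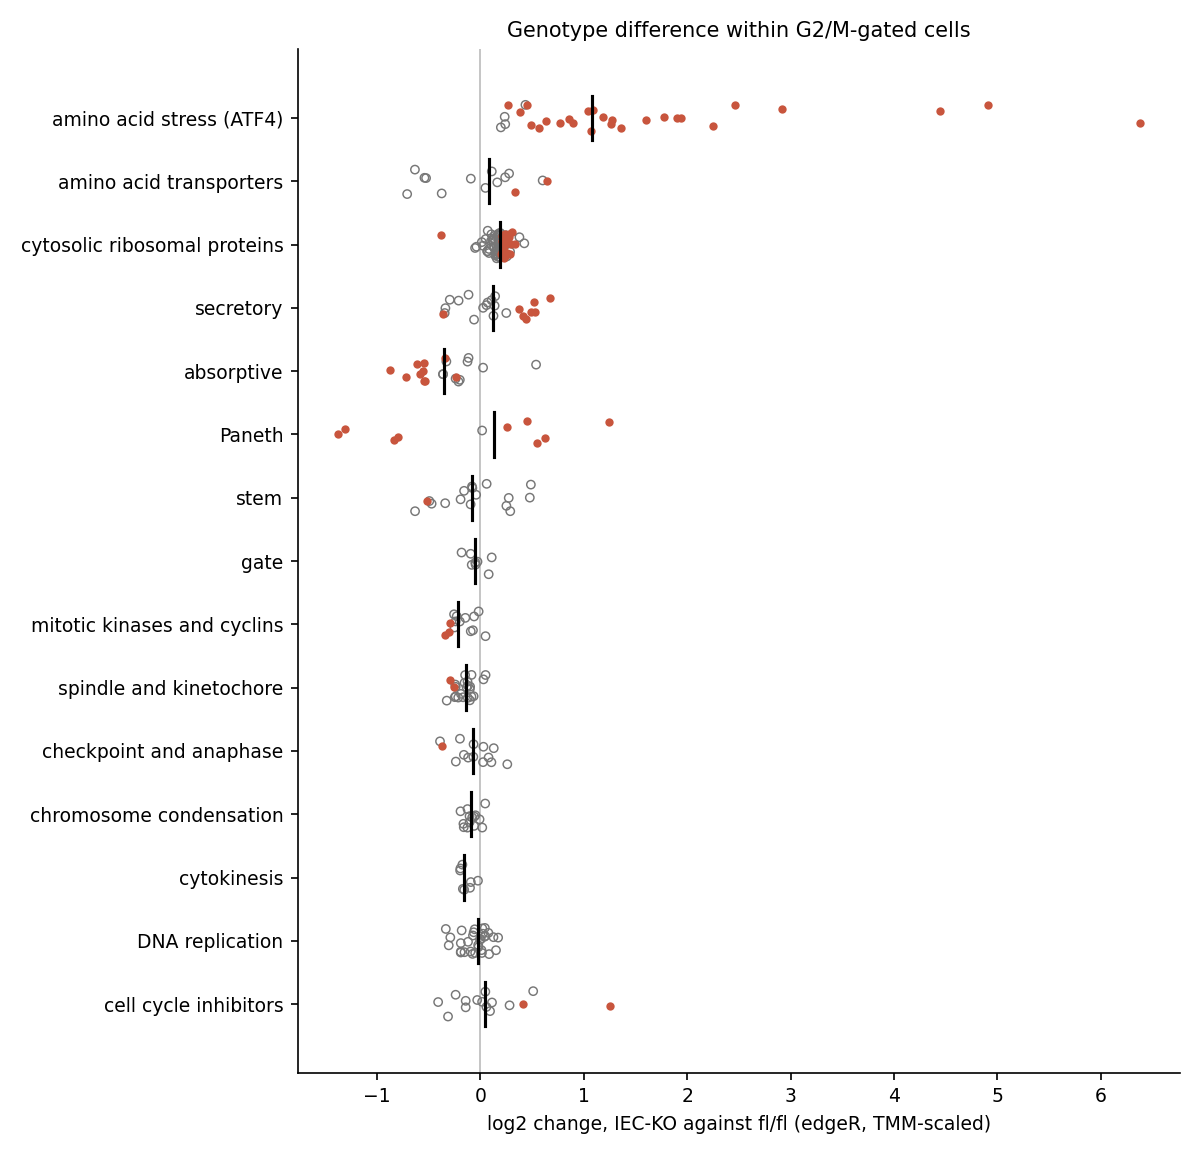
Each point is 1 gene of a list, placed by its log2 change between genotypes within the chosen G2 and M cells (edgeR, IEC-KO against fl/fl); filled points passed an adjusted p under 0.05 and black bars are list medians. The ATF4 list stands right of 0 with a median of 1.08, the absorptive list left of it at -0.35, and the medians of the mitotic lists at -0.21 to -0.07.

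Transcription factors of the response rose with it. Atf5 stood at 7.22, 8.75, 50.2 and 68.5 scaled CPM (2.92 ± 0.17, adjusted p = 4.8e-10) and Ddit3, or CHOP, at 10.8, 9.12, 52.2 and 57.6 (2.46 ± 0.14, adjusted p = 2.5e-14). Atf4 itself, which is regulated mostly by translation, changed by 0.57, from 119 and 116 to 162 and 185 scaled CPM. Nupr1, a stress-induced chromatin protein and the most abundant member of the list, went from 271 and 274 to 956 and 1130.

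Enzymes of serine synthesis on the ATF4 list rose: Phgdh, the first of them, from 32.0 and 35.9 to 72.2 and 81.4 scaled CPM (1.19), Psat1 by 1.27, Psph by 1.60, and the one-carbon enzymes Mthfd2 by 1.07 and Shmt2 by 0.86. The call of Shmt2 was lost when the rule was applied to thinned cells and when the same cells were thinned. Asns, asparagine synthetase, stood at 52.5, 55.9, 100 and 122 (1.05 ± 0.10, adjusted p = 4.5e-09). The translation repressor Eif4ebp1 rose by 1.36. Of the tRNA ligase genes on the list Sars (0.90), Gars (0.63), Nars (0.49), Wars (0.45) and Aars (0.27) rose, with the Wars call lost without fl/fl 2 or IEC-KO 2 and the Aars call without fl/fl 1, fl/fl 2 or IEC-KO 1, while Mars and Eprs did not pass; Cebpb and Ddit4 did not pass either.

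Transporters on the ATF4 list rose as well: Slc7a11, the cystine transporter (2.25; 11, 7, 30 and 67 UMIs), Slc1a4, for neutral amino acids (1.77), Slc3a2, the heavy chain that pairs with the Slc7a5 protein (0.77), and Slc38a2 (0.39), whose call was lost in each fit that left out a library, with doublets left out and in DESeq2. Of 14 further amino acid transporters, Slc7a1, for cationic amino acids, rose by 0.64, with 36.6, 40.0, 58.2 and 61.0 scaled CPM, and Slc1a5, for glutamine, by 0.33, a call that was lost without fl/fl 1, fl/fl 2 or IEC-KO 2. Slc7a5 itself was at 3.28, 3.17, 1.60 and 3.08 scaled CPM (-0.37, adjusted p = 0.67), with the libraries close together except IEC-KO 1.

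Most of the ATF4 calls held: 22 of the 26 held in each of the 4 fits that left out a library, 22 held in DESeq2 and 24 with doublets left out. When the rule was applied to thinned cells 11 held. When the same cells were used with their counts thinned, 20 held. The list was written with earlier results of these data known, so its direction is not independent evidence. In the libraries labelled IEC-KO the unscaled CPM of the chosen cells was 0.37 and 0.56 of that in cells with Defa% of 20 or more for Trib3, 0.78 and 0.90 for Chac1, 1.09 and 1.39 for Asns and 1.56 and 1.84 for Psat1. The part of RNA carried over from other cells in these changes was not tested.

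Other genes with the largest rises were Rbp4, a retinol carrier (2.20), Reg4, a lectin of secretory cells, from 499 and 510 to 2013 and 2345 scaled CPM (2.11), and the metallothionein Mt1, from 354 and 363 to 1169 and 1136 (1.68). For Mt1 the chosen cells held 2.43 and 2.22 times the level of cells with Defa% of 20 or more in the libraries labelled IEC-KO, and for Reg4 0.29 and 0.38 times. The largest falls were mostly Paneth granule genes: Gm15292 (-3.21), Defa21 (-1.81), Ang4 (-1.38), Mptx2 (-1.31), Defa22 (-1.28), Gm7849 (-1.23) and AY761184 (-1.15). Their level in the chosen cells was 0.08 to 0.21 of that in cells with Defa% of 20 or more in every library, and whether chosen cells made these transcripts was not tested. The calls of Defa21, Defa22 and AY761184 were lost with doublets left out. Near-identical defensin genes share reads, so their single values are uncertain.

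Outside the granule genes, Hmga1, a chromatin protein of dividing cells, fell from 19.7 and 15.8 to 6.60 and 6.16 scaled CPM (-1.49 ± 0.19, adjusted p = 3.2e-06). In unscaled CPM the chosen cells held 15.5, 14.4, 6.11 and 5.05 times the Hmga1 level of cells with Defa% of 20 or more. Sval1 (-0.88) also fell, as did Slc23a3 (-0.89), whose call was lost without fl/fl 2 or IEC-KO 2. The Paneth list split, with 5 of 10 measured genes higher, such as Mmp7, the protease that activates defensins (0.55), and Itln1 (0.45). On the same list 4 were lower, such as Lyz1, lysozyme (-0.84). Of all genes tested, 3.56% were higher and 1.60% lower.

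Fate genes moved in both directions. Of all genes tested, 3.56% were higher and 1.60% lower, the background for the counts below. Of 20 absorptive genes 10 were lower and none higher (median -0.35), among them Apob, of chylomicrons, from 17.6 and 18.1 to 9.0 and 10.1 scaled CPM (-0.88), the disaccharidase Sis (-0.72), Apoa4 (-0.61), the glucose transporter Slc5a1 (-0.59), Apoc3 (-0.55), Clca3b (-0.54), Apoa1 (-0.53), Cps1 (-0.34) and Fabp2 (-0.24). The crypt gene Cps1 stood at 213, 240, 172 and 185. Of these 10 calls 6 held in all fits that left out a library, 4 in DESeq2, and none when the rule was applied to thinned cells. Of 22 secretory genes 7 were higher: Muc2 (0.67), Spdef (0.53), Foxa3 (0.52), Creb3l4 (0.49), Ern2 (0.45), Creb3l1 (0.41) and Spink4 (0.38). Foxa3, a goblet transcription factor, stood at 136, 140, 191 and 203. Sox4 was lower (-0.36). Of these 8 calls 3 held without fl/fl 2 and 7 without each other library, 4 held in DESeq2 and 2 when the rule was applied to thinned cells. Atoh1 stood at 104, 90.7, 110 and 121 scaled CPM (0.25, adjusted p = 0.086).

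Of 17 stem cell genes 1 passed, or 5.88% against 5.16% of all genes. This was Cd44, an adhesion receptor (-0.51, with 22, 23.6, 16.4 and 15.7 scaled CPM), whose call was lost in each fit that left out a library. Ascl2 (-0.49, adjusted p = 0.052), Olfm4 (-0.63, adjusted p = 0.13) and Lgr5 (-0.47, adjusted p = 0.28) had lower values in the libraries labelled IEC-KO and did not pass. Ribosomal protein genes had a median of 0.19, with Rps2 lower (-0.38) and 26 of 77 higher, against 3.56% of all genes. That count was 1 without fl/fl 1, 0 without fl/fl 2 and 1 under library size scaling. The sex-linked genes all passed: Xist stood at 414, 459, 938 and 1072, and Ddx3y at 14.6, 12.5, 4.6 and 4.49 scaled CPM; of the 5, 3 held without fl/fl 2 and 3 without IEC-KO 2. Both Xist and Y-linked UMIs were present in every library, and the makeup by sex and the genotype cannot be told apart.

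Whether the genotype difference in the chosen cells differed from that in the other cells with Defa% under 20 was tested on both sums of each library with library as a block. Of 11210 genes 1311 passed, or 11.7%: 867 with a higher difference in the chosen cells (7.73%) and 444 with a lower one (3.96%). Without fl/fl 1 these counts were 399 and 196, without fl/fl 2 they were 529 and 246, and without IEC-KO 2 they were 464 and 457. The other cells hold cells of several kinds, and their makeup moved with genotype: enterocyte-gated cells were 112 of 1014, 92 of 786, 266 of 6050 and 221 of 5348. Against S-gated cells, of which there were only 260, 1 gene passed in each direction and 407 of 9959 had an unadjusted p under 0.05.

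Absorptive genes differed less between the genotypes in the chosen cells. Of 20, 14 passed with a higher difference in the chosen cells, against 7.73% of all genes. The median change of the list was -0.35 in the chosen cells against -1.18 in the other cells. Fabp1, for example, changed by -0.36 in the chosen cells and -1.20 in the others. ATF4 genes also changed less: 17 of 30 passed with a lower difference, against 3.96% of all genes, and the medians were 1.08 and 1.61. Of these 30 genes Phgdh had the most negative difference, with changes of 1.19 in the chosen cells and 3.61 in the others. In libraries labelled fl/fl it was already at 32.7 and 36.5 unscaled CPM in the chosen cells against 9.91 and 9.89 in the others, and in those labelled IEC-KO it stood at 71.7 and 78.5 against 118 and 114. The order of the classes was thus opposite in the different genotypes. Psat1 had the same pattern, at 29.1, 31.9, 65.2 and 75.1 CPM in the chosen cells and 16.1, 13.2, 81.8 and 83.6 in the others.

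**Figure D5:**
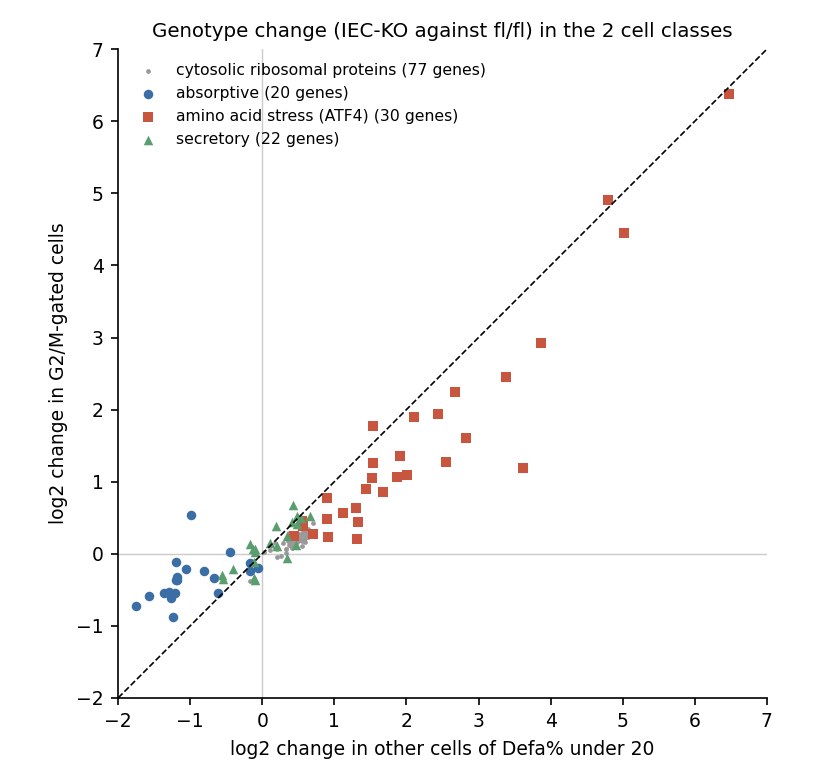
Each point is 1 gene, placed by its log2 change between genotypes (IEC-KO against fl/fl) in the other cells with Defa% under 20 (horizontal) and in the chosen G2 and M cells (vertical); the dashed line marks equal change. Most ATF4 genes lie below the line on the right and most absorptive genes above it on the left, so both lists changed less in the chosen cells.

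Ribosomal protein genes had a lower difference in the chosen cells for 72 of 77 (medians 0.19 and 0.46), while 5 secretory genes had a higher one, among them Muc2 (0.67 and 0.42); of these 5 calls 2 held without fl/fl 1, 3 without fl/fl 2 or without IEC-KO 2, and none with doublets left out. Of all genes, 7.73% passed with a higher difference in the chosen cells and 3.96% with a lower one. No gene of the kinases and cyclins (14), checkpoint (14) or cytokinesis (8) lists passed. Of 24 spindle genes Tubb4b passed with a higher difference (0.25) and Hmmr with a lower one (-0.73), or 8.33% against 11.7% of all genes. Of 14 condensation genes Lmnb1, of the nuclear lamina, passed with a higher difference (0.39), and the histone H2afz (-0.35) and the nucleosome-binding protein Hmgn2 (-0.32) with a lower one, or 21.4% against 11.7% of all genes. The calls of Hmmr and Lmnb1 were lost in every fit that left out a library, and in DESeq2 none of the spindle calls and 1 of the condensation calls held. Of 31 replication genes Mcm6 and Gmnn, the inhibitor of Cdt1, passed with a higher difference in the chosen cells, or 6.45% against 11.7% of all genes. Neither call held in every fit that left out a library. The fits share the same libraries and the other cells' counts, so these calls are not independent of those within the chosen cells.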

How the data were processed

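The authors deposited raw UMI counts per gene and cell barcode after cell calling, made per the labels with Cell Ranger 2.1.1 on mm10; they were used unchanged. Fold ratios, shares and CPM are computed here. Cells were chosen by the fixed rule, and doublets were kept; calls for the alternative came from Scrublet in Scanpy 1.11.5 at 0.8% per 1000 cells. UMIs were summed per library and class and tested with edgeR 4.0.16 (TMM, filterByExpr, robust quasi-likelihood; standard errors from the F statistic; Benjamini-Hochberg at 0.05), genotype only as the factor; DESeq2 1.42.0 was an alternative. The study compared single cells; cells of 1 library are not replicates, so sums were used. Shares were compared by two-sided exact permutation over libraries, with exact (Clopper-Pearson) 95% intervals. Genes with at least 50 UMIs counted as measured against other cells, with 1 CPM added for folds. The planned background of enterocyte-gated cells without Muc2 was nearly empty, so Muc2 was disregarded, a choice made after seeing the data. The fits were tested on simulated data in which every gene had the same dispersion, taken from these libraries. With 10306 genes, 49.2% of 1.5-fold, 74.6% of 2-fold and 96.9% of 4-fold genotype changes were called, and 8.81% of calls were false. These rates need not hold for counts with a dispersion that differs by gene. The members and lists were chosen with earlier results of these data known. Named genes are the gate genes, Slc7a5, Atoh1, list members, the 10 largest rises and falls past the threshold with libraries that do not overlap and a mean of at least 10 CPM, and the 5 largest differences between classes in each direction. Pla2g2a was not analysed here.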

Additional observations from a re-analysis of the deposited data

Results flagged for a closer look

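The genotype change in the chosen G2 and M cells differed from that in the other cells with Defa% under 20 for the genes below, by the test of the difference (edgeR, adjusted p under 0.05). Values are log2 differences, the change in the chosen cells minus that in the others. The 5 with the highest differences were 1810065E05Rik (1.59), the antimicrobial lectin Reg3a (1.38), C2cd4a (1.33), Mall (1.28) and the glutathione transferase Gsta1 (1.24). Their own changes ran from -1.66 for Reg3a to -1.19 for Gsta1 in the other cells, and none of them passed in the chosen cells.

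The 5 with the lowest were Phgdh (-2.39), Nup133 (-2.22), Steap1 (-1.75), Pck2 (-1.53) and Snhg12 (-1.41), whose own changes were 0.93 to 1.19 in the chosen cells, where all passed, and 2.41 to 3.61 in the others. The serine and asparagine enzymes Psat1 (-1.26) and Asns (-0.45) followed Phgdh. Slc7a5 differed by -1.32 ± 0.42 (SE, adjusted p = 0.017), with -0.37 in the chosen cells and 0.96 in the others, from 20, 17, 8 and 24 UMIs in the chosen cells; the call was lost without fl/fl 1, fl/fl 2 or IEC-KO 1. Among enterocyte genes Sis differed by 1.06, Fabp1 by 0.86 and Apoa1 by 0.79, and the goblet mucin Muc2 differed by 0.27. The part that the makeup of the other cells had in these differences was not tested.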

How the results depend on the processing

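The counts of genes that passed moved with the setting. In the genotype comparison within the chosen cells, 368 genes were higher and 166 lower. The higher count was 45 when the rule was applied to thinned cells, 118 with the same cells thinned, 115 in DESeq2 and 186 to 433 when each library was left out. The lower count was 27, 55, 40 and 87 to 174 in those settings, 266 with at least 4 gate genes and 327 under library size scaling. Between classes, 867 and 444 genes passed; the rule on thinned cells gave 146 and 159, DESeq2 215 and 154, S-gated cells as the comparison 1 and 1, and leaving out a library 399 to 709 and 196 to 457. The replicate number as a block gave 319 higher and 156 lower in the genotype comparison. Deviations of same-numbered libraries from their group means had r = 0.012 over 10345 genes. With 2 libraries per genotype, this value cannot settle whether the numbers are a pairing, which the labels do not state.

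The lower share of chosen cells in the libraries labelled IEC-KO kept its direction throughout, at -23.2 to -20.5 points when a library was left out, -5.69 points of all cells, -11.3 and -14.7 points in the settings on thinned cells, and -18.2 points with at least 3 genes in thinned cells, an alternative added after seeing the data. The Atoh1 difference (2.73 to 4.49 points without each library) turned to -1.96 unthinned, and the mean background share was 6.84% with at least 5% enterocyte UMIs. The absorptive difference was -5.78 to -3.15 points without each library, -0.74 on the thinned rule, -9.83 at the common limit, -8.59 unthinned, and -14.6 with 2 of 6 genes.

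Of 87 named genes called between genotypes, 55 were called without each library; of 1555 values under alternatives, 241 lost the call and 1 turned sign, Vldlr (-0.19 on thinned cells). Of 17 differences between classes 15 held without each library, and with S-gated cells 5 turned: C2cd4a (-0.20), Mall (-0.16), Steap1 (0.17), Snhg12 (0.14) and Fabp1 (-0.12). The causes were not tested. Depth limits rare genes: Lgr5 and Slc7a5 had 8 to 54 UMIs per library in the chosen cells.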

Other observations

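Genes of rarer secretory lineages were also read in the chosen cells. Of all genes tested, 3.56% were higher in the libraries labelled IEC-KO, the background for the counts below. Of 10 enteroendocrine genes measured, 3 rose in the libraries labelled IEC-KO (edgeR, adjusted p under 0.05): Gip, the incretin of K cells, from 220 and 248 to 445 and 560 TMM-scaled CPM (log2 change 1.11), Tac1 (0.73) and Sct (0.33), the last of which was lost without fl/fl 2. The Gip call was lost with at least 4 or at least 6 gate genes and in the 3 settings on thinned cells. In unscaled CPM the chosen cells held 0.57, 0.59, 0.92 and 1.10 times the Gip level of cells with Defa% of 20 or more, and the part of carried-over RNA was not tested. Of 7 tuft genes 2 rose, Avil (0.97) and Lrmp (0.88), neither of which passed without IEC-KO 1 or without IEC-KO 2, while Dclk1 (0.62, adjusted p = 0.19) and Trpm5 (0.78, adjusted p = 0.20) did not pass. The summed level of the tuft list was 33.7, 33.5, 52.1 and 43.1 unscaled CPM, and that of the enteroendocrine list 719, 840, 1097 and 1450. Of 14 genes of dissociation stress, 1 rose, Atf3 (2.03), which is also a target of ATF4 and was lost without IEC-KO 2.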
